A study of Mus musculus with 8 samples.

Results

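The 10 genes described here encode the enzymes and the carrier of the urea cycle, Cps1, Otc, Ass1, Asl, Arg1, Nags and Slc25a15, and 3 enzymes that make or use glutamine and glutamate in the liver, Glul, Gls2 and Oat. They were taken by name from a table of gene expression in mouse liver, in which 17294 features had a value above 0 in at least 1 library once rows with identical values were joined. Each of the 10 names occurred once. All 10 genes passed the filter on low values (1 FPKM or more in 2 or more libraries), as did 11463 features in all. FPKM is a fragment density, scaled to transcript length and to mapped fragments, so that levels can be compared between genes. The row of Glul has the same values as that of the small RNA Mir8114 and was read as Glul. In the GENCODE vM21 annotation (GRCm38) all 10 are protein-coding genes. On the plus strand lie Cps1 (chr1:67123026-67231259), Glul (chr1:153899944-153909723), Ass1 (chr2:31470207-31520672), Gls2 (chr10:128194457-128210004), Nags (chr11:102145513-102149477) and Otc (chrX:10252305-10321024). On the minus strand lie Asl (chr5:130011258-130029247), Oat (chr7:132557478-132576398), Slc25a15 (chr8:22375551-22398597) and Arg1 (chr10:24915221-24927484).

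The urea cycle turns ammonia, which is toxic to the brain, into urea, and the complete cycle runs almost only in hepatocytes. Its first steps lie in mitochondria, where Nags makes the activator of Cps1, Cps1 joins ammonia with bicarbonate to carbamoyl phosphate, and Otc couples this to ornithine that Slc25a15 carries in. Ass1, Asl and Arg1 complete the cycle in the cytosol. Hepatocytes near the portal vein run the cycle and hydrolyse glutamine with Gls2, and hepatocytes next to the central vein capture leftover ammonia as glutamine with Glul. Oat, which interconverts ornithine and glutamate semialdehyde, lies mainly in the same pericentral cells.

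RNA was measured by sequencing of whole liver from male C57Bl/6J mice in 4 groups of 2 libraries, which the submitters call biological replicates. The groups were wild type and ApoE-Cyp7a1 transgenic mice, each left untreated or treated with LPS. This bacterial lipopolysaccharide was injected daily at 1.5 mg/kg for 7 days. The labels state neither ages nor an injection of vehicle in the untreated mice. The transgene expresses Cyp7a1, the enzyme that limits the rate at which bile acids are made from cholesterol, and is called liver specific by the submitters. The comparisons ask how repeated endotoxin exposure and the transgene, singly and together, alter liver RNA. In bulk liver, fewer cells of a type and less RNA per cell cannot be told apart.

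The deposited FPKM of a library summed to between 406668 and 580052, and the depth behind these values is unknown. The Cyp7a1 row stood at 24.9 and 49.1 FPKM in untreated wild type, 19.9 and 27.9 with LPS, 64.7 and 78.5 in untreated transgenic liver and 73.5 and 70.2 in transgenic liver with LPS, so that all transgenic libraries lay above all wild-type ones. The summed FPKM of 22 hepatocyte markers, Cps1 among them, was 58764 to 73269 in untreated wild type, 50616 to 51806 in wild type with LPS, 50258 to 58013 in untreated transgenic and 47074 to 47514 in transgenic with LPS. That of macrophage markers was 212 to 323, 1785 to 1789, 231 to 317 and 1599 to 1643 in the same order. Among the 10 members, transgenic LPS replicate 1 stood apart from its partner in several genes, and results that rest on it are given with and without it.

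Of the members 3 passed the test for an LPS change averaged over both genotypes, Oat, Glul and Otc, and the 250 bases before their start sites are shown to let the letters be read beside that shared direction. The bases come from RefSeq on GRCm38.p6, which held promoters for 6 of the 10 members. Capitals mark CCAAT (or its reverse complement ATTGG) and GGGCGG.
Oat, chr7:132576399-132576648, minus strand: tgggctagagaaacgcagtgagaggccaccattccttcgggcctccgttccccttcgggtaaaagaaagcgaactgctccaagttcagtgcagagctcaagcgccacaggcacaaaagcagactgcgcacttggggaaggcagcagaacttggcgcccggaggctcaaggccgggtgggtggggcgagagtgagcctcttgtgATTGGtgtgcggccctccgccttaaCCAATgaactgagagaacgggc
Glul, chr1:153899679-153899928, plus strand: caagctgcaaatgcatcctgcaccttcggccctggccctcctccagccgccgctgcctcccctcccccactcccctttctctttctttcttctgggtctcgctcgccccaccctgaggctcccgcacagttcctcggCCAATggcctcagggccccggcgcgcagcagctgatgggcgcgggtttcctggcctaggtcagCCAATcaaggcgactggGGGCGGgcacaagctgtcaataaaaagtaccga
Otc, chrX:10252055-10252304, plus strand: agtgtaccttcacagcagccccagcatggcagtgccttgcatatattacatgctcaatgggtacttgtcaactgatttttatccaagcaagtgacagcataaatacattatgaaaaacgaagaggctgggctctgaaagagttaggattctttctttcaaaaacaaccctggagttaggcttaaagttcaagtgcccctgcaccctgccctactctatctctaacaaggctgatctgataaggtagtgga
The Oat and Glul stretches are rich in G and C, 60.0% and 64.8% against a median of 52.4% over all promoters of the table, with 14 and 15 CpG dinucleotides against a median of 6. The Otc stretch holds 43.6% G and C and 1 CpG. Each of Oat and Glul has 2 CCAAT boxes in this window, a motif found in 33.8% of the 32536 promoters, and Glul also has GGGCGG, found in 33.0%. Neither of these motifs, nor any of the 6 others searched on both strands, is in the Otc window. The others were CTTTGAA or CTTTGAT (7.5% of promoters), TTGCNNAA (9.57%), CAAAGTCCA (0.387%), TGACGT (6.5%), AGAACA (16.0%) and TATAAA (12.3%), and none of them is in the Oat or Glul window either.

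In untreated wild-type liver the 10 genes spanned a wide range of levels. Arg1, which splits arginine into urea and ornithine, was the highest at 1918 ± 630 FPKM (SD, n = 2), and Cps1 followed at 1615 ± 424 FPKM, the 2 libraries of each overlapping those of the other. Asl at 949 ± 60.0 FPKM, Oat at 820 ± 46.6 FPKM and Glul at 431 ± 23.9 FPKM came next, each apart from its neighbours. Otc, Gls2 and Slc25a15 had means of 198, 164 and 164 FPKM and overlapped. Ass1 at 117 ± 12.8 FPKM and Nags at 33.7 ± 16.6 FPKM were the lowest. Arg1 and Cps1 remained the highest and Nags the lowest in all 4 groups, while Otc moved from the sixth place in both untreated groups to the eighth in wild type with LPS and to the ninth in transgenic liver with LPS, overlapping its neighbours Slc25a15 and Ass1 in the former and Ass1 in the latter.

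**Figure D1:**
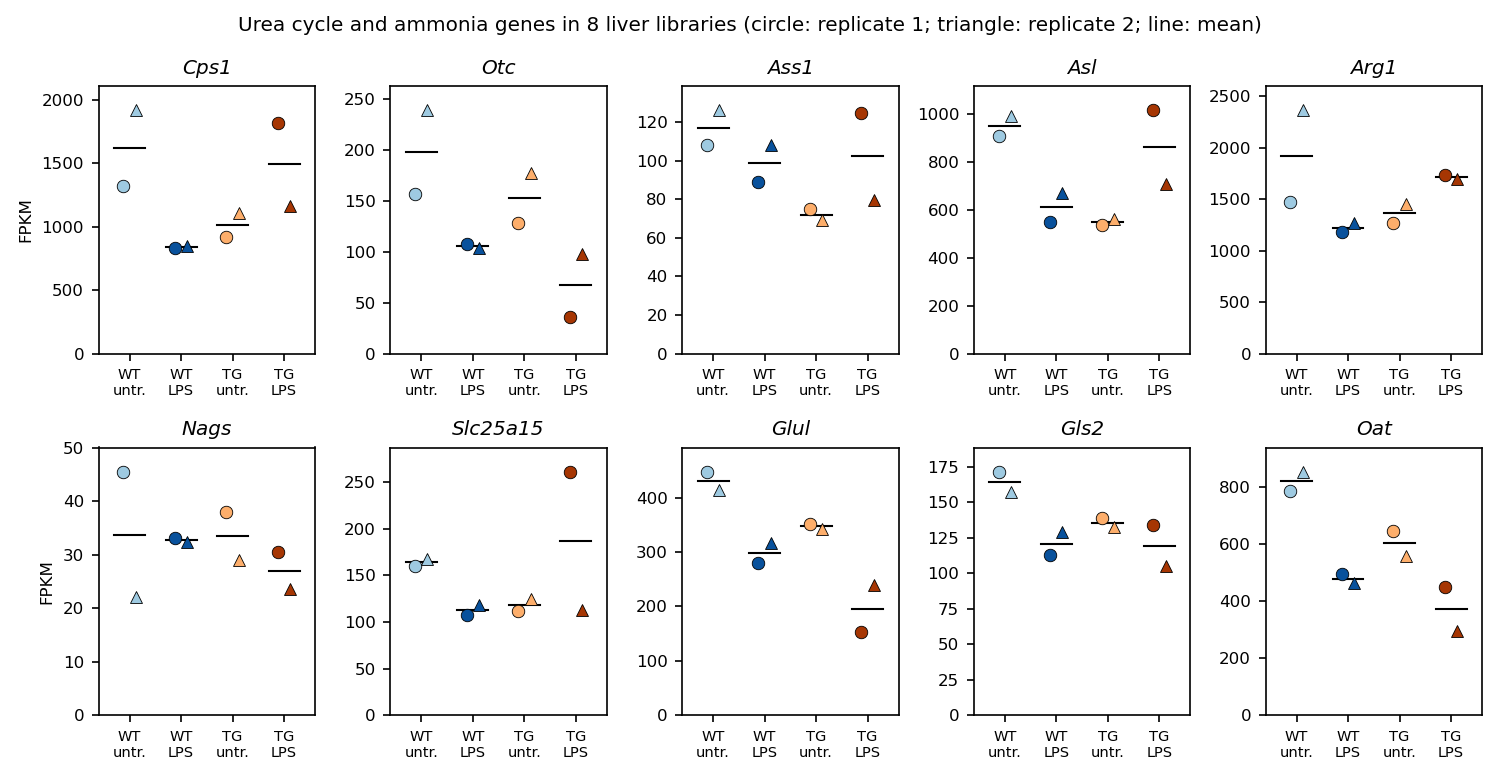
FPKM of the 10 genes (y axis, from 0) in the 8 libraries, by group (x axis; WT, wild type; TG, transgenic; untr., untreated). Circles are replicate 1, triangles replicate 2 and lines the mean of 2. In wild type the 2 LPS libraries lie below both untreated ones for 8 of 10 genes, and in transgenic liver Cps1, Ass1, Asl and Arg1 lie above and Otc, Glul and Oat below.

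In wild-type liver, LPS libraries held lower values of most of the 10 genes, but only Oat passed the test. Both LPS libraries lay below both untreated ones for 8 of the 10, all but Ass1 and Nags, where 34.0% of all features tested did so. The median change of the 10 was -0.57 on the log2(FPKM + 1) scale, against -0.05 for all features. Lower values were called for 5.41% of all features at an adjusted p under 0.05 (limma, Benjamini-Hochberg), and higher values for 16.2%. Of the members 1 of 10 was called lower and 0 higher, while 5 had an unadjusted p under 0.05, beside 35.7% of all features.

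Cps1, which commits ammonia to the cycle, was measured at 1315 and 1915 FPKM without and 834 and 846 FPKM with LPS in wild type. The groups are well apart, and the log2 change of -0.92 ± 0.28 (SE) missed the threshold at an adjusted p of 0.0546. Its mitochondrial partner Otc was at 156 and 239 FPKM without and 108 and 104 FPKM with LPS, a change of -0.86 ± 0.44 (adjusted p = 0.198) in which the spread of the untreated libraries is large. Slc25a15, the ornithine carrier, went with values of 160 and 168 FPKM without and 107 and 118 FPKM with LPS (-0.54 ± 0.34, adjusted p = 0.301). Nags had its widest spread in untreated wild type, 45.5 and 22 FPKM, and its LPS libraries, 33.1 and 32.3 FPKM, lay between them.

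Among the cytosolic steps, Asl, which releases arginine and fumarate, was measured at 907 and 992 FPKM without and 550 and 670 FPKM with LPS in wild type (-0.64 ± 0.22, adjusted p = 0.0807). Arg1 was at 1472 and 2363 FPKM without and 1178 and 1270 FPKM with LPS (-0.61 ± 0.25, adjusted p = 0.127). Its change was -0.95 without wild-type untreated replicate 1 (adjusted p = 0.0200) and -0.27 without replicate 2 (adjusted p = 0.428). Both genes were lower in each LPS library without passing the test. Ass1, which makes argininosuccinate, overlapped at 108 and 126 FPKM against 88.8 and 108 FPKM, with a change of -0.25 ± 0.23 whose sign turned under 2 other scalings (0.02 with quantile normalization, 0.22 with centring on hepatocyte genes).

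Of the genes around the cycle, Oat fell in wild type from 787 and 853 FPKM to 493 and 464 FPKM. Its log2 change was -0.78 ± 0.23 (95% interval -1.31 to -0.24, adjusted p = 0.0488), just inside the threshold, and the adjusted p ranged from 0.00988 to 0.232 when single libraries were left out. Glul, glutamine synthetase, had 448 and 414 FPKM without and 280 and 317 FPKM with LPS (-0.53 ± 0.23, adjusted p = 0.141). Gls2, the liver glutaminase, had 172 and 157 FPKM without and 113 and 129 FPKM with LPS (-0.44 ± 0.18, adjusted p = 0.117). Both pairs of groups are apart, and the change of Gls2 was 0.03 when libraries were centred on hepatocyte genes.

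All 4 groups share 1 estimate of the spread, so the calls in wild type depend on the transgenic libraries as well. With transgenic LPS replicate 1 left out, 6 members were called lower in wild type, Cps1, Otc, Asl, Slc25a15, Glul and Oat, at the same log2 changes, and the same 6 were called with transgenic LPS replicate 2 left out. Over all features 7.81% were called lower without replicate 1. Without wild-type untreated replicate 1 the calls were Cps1 and Arg1, and without any other single library there were 0. The hepatocyte list moved in the same direction: its median change in wild type was -0.45, with 3 of 21 genes called lower and 1 higher. Centring each library on 20 hepatocyte genes that are not members left 7 of the 10 members below 0, a median of -0.10 and no member called. The same centring moved the median of all features from -0.05 to 0.42, and lower calls over all features from 620 of 2481 to 43 of 4199 (994 of 2453 with quantile normalization).

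In transgenic liver the 10 genes did not share a direction. Cps1, Ass1, Asl and Arg1 lay above both untreated libraries in both LPS libraries, where 31.8% of all features did, and Otc, Glul and Oat lay below, where 36.2% did. The median change was 0.07 on the log2 scale against -0.04 for all features. Of the members 1, Glul, was called lower, beside 10.5% of all features, and 0 were called higher, beside 16.0%, while 4 members had an unadjusted p under 0.05, beside 39.6% of all features. Over all features the lower calls were 1200 of 3034, and 507 of 2644 with centring on hepatocyte genes.

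Glul fell in transgenic liver from 353 and 343 FPKM to 152 and 239 FPKM. Its log2 change was -0.86 ± 0.23 (95% interval -1.39 to -0.33, adjusted p = 0.030). The lower of the LPS values belongs to replicate 1, and without that library the change was -0.54 (adjusted p = 0.0808). Leaving out either library of wild type with LPS or either untreated transgenic one also ended the call. Oat was measured at 646 and 559 FPKM without and 449 and 294 FPKM with LPS, a change of -0.73 ± 0.23 (adjusted p = 0.0530) close to that in wild type, and here replicate 2 was the lower one. Without replicate 1 the change of Oat was -1.03. Gls2 overlapped at 139 and 133 FPKM against 134 and 105 FPKM (-0.19 ± 0.18, or 0.16 with quantile normalization).

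Otc had its lowest values in transgenic liver with LPS, 36.2 FPKM in replicate 1 and 98.0 FPKM in replicate 2, against 128 and 177 FPKM in the untreated transgenic libraries. The change of -1.32 ± 0.44 missed the threshold (adjusted p = 0.0596) and was -0.62 without replicate 1 (adjusted p = 0.236). Cps1, which precedes Otc in the pathway, was measured at 918 and 1110 FPKM without and 1812 and 1165 FPKM with LPS, so that it was higher in the libraries in which Otc was lower. Its change was 0.53 ± 0.28 (adjusted p = 0.206), and 0.21 without replicate 1. Nags overlapped at 37.9 and 29.1 FPKM against 30.4 and 23.5 FPKM. Slc25a15 was at 111 and 125 FPKM without LPS, and its LPS libraries split to 261 and 113 FPKM. Its change of 0.54 ± 0.34 rests on replicate 1 and was -0.06 without it.

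For the cytosolic enzymes in transgenic liver, Asl stood at 537 and 562 FPKM without and 1014 and 707 FPKM with LPS (0.62 ± 0.22, adjusted p = 0.0770). Arg1 stood at 1273 and 1453 FPKM without and 1739 and 1694 FPKM with LPS (0.34 ± 0.25, adjusted p = 0.358), and its 2 LPS libraries were close to each other. Ass1 stood at 75.0 and 69.0 FPKM without and 125 and 79.4 FPKM with LPS (0.46 ± 0.23, adjusted p = 0.185). All 3 were higher in each LPS library, and none passed the test. Without transgenic LPS replicate 1 the changes were 0.36 for Asl, 0.14 for Ass1 and 0.32 for Arg1. Without replicate 2 they were 0.88, 0.79 and 0.35. With quantile normalization, or with centring on hepatocyte genes, Asl was called higher (0.86 and 0.79, adjusted p = 0.0369 and 0.0469) and Glul was not called (-0.60 and -0.69, adjusted p = 0.0560 and 0.0579).

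**Figure D2:**
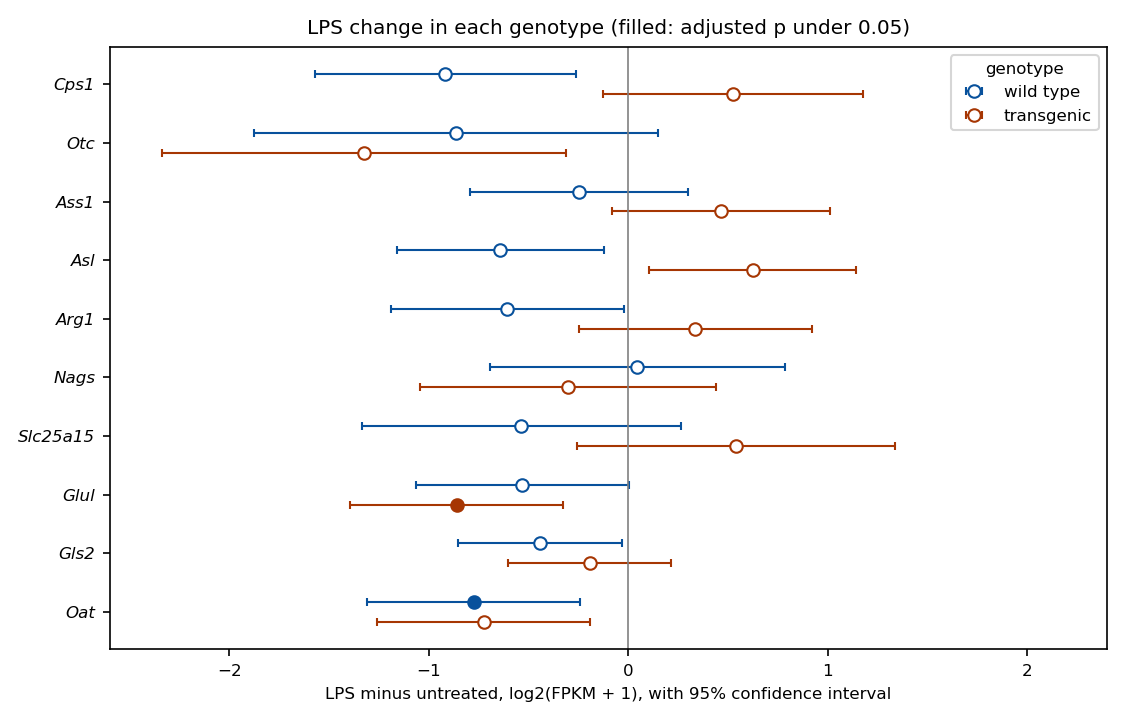
LPS minus untreated on the log2(FPKM + 1) scale (x axis) for each gene (y axis), with 95% confidence intervals from limma over 2 libraries a group; filled points passed at an adjusted p under 0.05. Oat in wild type, at -0.78, and Glul in transgenic liver, at -0.86, are filled, and Cps1, Asl, Arg1, Ass1 and Slc25a15 lie below 0 in wild type and above 0 in transgenic liver, and Nags, at 0.04 and -0.30, the other way round.

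Averaged over both genotypes, Oat, Glul and Otc fell with LPS. The log2 change of Oat was -0.75 ± 0.16 (95% interval -1.13 to -0.37, adjusted p = 0.00933), that of Glul -0.70 ± 0.16 (-1.07 to -0.32, adjusted p = 0.0128) and that of Otc -1.09 ± 0.31 (-1.81 to -0.38, adjusted p = 0.0272). Oat was at 294 to 493 FPKM in the 4 LPS libraries and at 559 to 853 FPKM in the 4 untreated ones. Glul was at 152 to 317 FPKM against 343 to 448 FPKM, and Otc at 36.2 to 108 FPKM against 128 to 239 FPKM. How many of all features are separated in this way was not counted, so the separation is given as a description. Of the members 3 of 10 were called lower and 0 higher, where 15.8% of all features were called lower and 20.6% higher. Gls2 had a change of -0.32 ± 0.12 (adjusted p = 0.0824), and the averages of Asl and Slc25a15, whose 2 genotypes lie on opposite sides, were -0.01 and 0.0024.

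Oat stayed called without each of the 8 libraries in turn, with changes of -0.90 to -0.60. Of these libraries, leaving out wild-type LPS replicate 1 alone ended the call of Glul (adjusted p = 0.0615), and Otc lost it without 4 of the 8 libraries (changes of -1.45 to -0.74 over all 8): wild-type untreated replicate 2, either wild-type LPS library and transgenic untreated replicate 2. Relative to hepatocyte genes the changes were smaller and none was called, at -0.43 for Oat (adjusted p = 0.0814), -0.37 for Glul (adjusted p = 0.0989) and -0.77 for Otc (adjusted p = 0.0681). Of the 21 hepatocyte genes tested, 6 were themselves called lower and 1 higher in this comparison, so the reference is not one that LPS left unchanged. Over all features that centring left 329 lower calls of 4400, against 1813 of 4177 as deposited and 2453 of 4442 with quantile normalization.

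The transgene by itself was set beside wild type in untreated mice, where no member passed and 0.0611% of all features did (7 of 11463, limma). The members Asl and Ass1, had an unadjusted p under 0.05, beside 5.5% of all features. A direction was shared by most members: 8 of the 10 genes had both transgenic libraries below both wild-type ones, all but Otc and Nags, where 14.2% of all features did. Asl had the largest difference, -0.79 ± 0.22 (adjusted p = 0.602), from 949 ± 60.0 to 550 ± 17.8 FPKM, followed by Ass1 at -0.69 ± 0.23 (adjusted p = 0.753) and Cps1 at -0.65 ± 0.28 (adjusted p = 0.907). The median of the 10 was -0.45, against 0.0001 for all features, and -0.21 for the hepatocyte list. With centring on hepatocyte genes it was -0.19, with 9 of 10 genes still below 0, while the median of all features moved to 0.26. Summed pancreas acinar markers were at 1378 and 83.5 FPKM in untreated wild type and at 5129 and 1078 FPKM in untreated transgenic liver. Without the library numbered 1 of each group, the median of the members was -0.52. That leaves 1 library a group, with pancreas markers still at 83.5 and 1078 FPKM.

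Among mice given LPS, no member differed between genotypes by the test (0.0% of all features called, limma), and 2 members, Cps1 and Glul, had an unadjusted p under 0.05, beside 12.2% of all features. Cps1, Asl and Arg1 had both transgenic libraries above both wild-type ones, with differences of 0.79 ± 0.28 (adjusted p = 0.365), 0.48 ± 0.22 (adjusted p = 0.430) and 0.49 ± 0.25 (adjusted p = 0.466). Otc, Nags, Glul and Oat had both below, with -0.82 ± 0.44, -0.28 ± 0.32, -0.64 ± 0.23 and -0.40 ± 0.23. Over all features 22% had both transgenic libraries above and 30.0% had both below, beside 3 and 4 of the 10 members. Without transgenic LPS replicate 1 the differences of Cps1, Asl and Arg1 were 0.47, 0.22 and 0.47, and those of Otc, Glul and Oat -0.11, -0.31 and -0.70. Without replicate 2 the difference of Glul was -0.96. That of Slc25a15 was 1.21 without replicate 2, 0.61 with all libraries and 0.0058 without replicate 1. In these libraries the order of the genotypes turned between untreated and LPS-treated mice for Cps1, Asl and Arg1 and stayed the same for Glul and Oat. None of these differences passed the test in either comparison. How many of all features turn or keep their order in this way was not counted.

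The difference of the LPS change between the genotypes, the interaction, was positive for 7 of the 10 genes (5 with centring on hepatocyte genes), and no member passed its test (0.00872% of all features called, limma), while 3 had an unadjusted p under 0.05, beside 10.4% of all features. These were Cps1 at 1.44 ± 0.40 on the log2 scale (95% interval 0.52 to 2.37, adjusted p = 0.418), Asl at 1.27 ± 0.32 (0.53 to 2.00, adjusted p = 0.392) and Arg1 at 0.94 ± 0.35 (0.12 to 1.77, adjusted p = 0.444). The same 3 genes had both LPS libraries below both untreated ones in wild type and above both in transgenic liver, a pattern that 2.75% of all features show. Slc25a15, at 1.08 ± 0.48, and Ass1, at 0.71 ± 0.33, were also positive with intervals that include 0. Otc, Nags and Glul were at -0.46, -0.35 and -0.33, and Gls2 and Oat at 0.25 and 0.05, again with 0 inside each interval.

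Without transgenic LPS replicate 1 the interaction was 1.12 for Cps1 (adjusted p = 0.625), 1.01 for Asl (adjusted p = 0.494) and 0.93 for Arg1, so that these 3 kept most of their size. Slc25a15 was then at 0.48, Ass1 at 0.39, Glul at 0.00 and Otc, with its sign turned, at 0.25. Without replicate 2 of the same group Asl and Slc25a15 passed, at 1.53 (adjusted p = 0.0314) and 1.68 (adjusted p = 0.0180), and Cps1 was at 1.76 (adjusted p = 0.0559). In that fit 2.43% of all features passed. Only Arg1 had nearly the same interaction without either of these 2 libraries. Its interaction also rests on wild type, where its LPS change was -0.95 without untreated replicate 1 and -0.27 without untreated replicate 2.

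**Figure D3:**
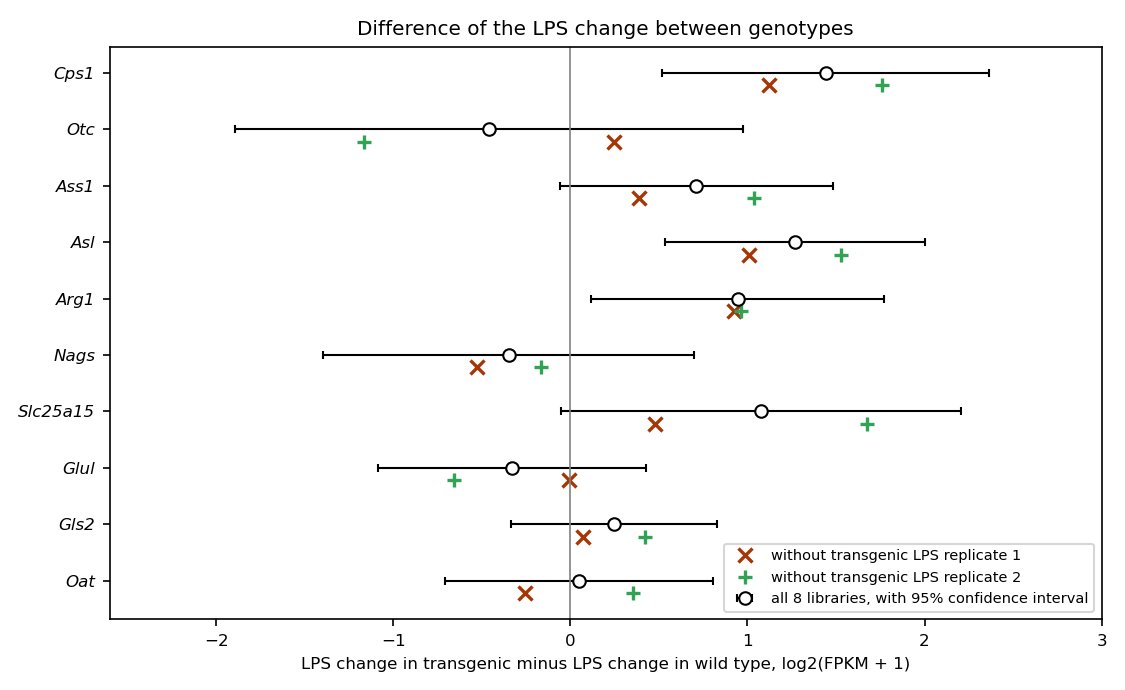
LPS change in transgenic minus LPS change in wild type on the log2(FPKM + 1) scale (x axis) for each gene (y axis). Open circles with 95% confidence intervals use all 8 libraries, crosses leave out transgenic LPS replicate 1 and plus signs replicate 2. Cps1, Asl and Arg1 lie at 1.44, 1.27 and 0.94 with intervals above 0, and the marks of Otc lie on both sides of 0.

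Ratios between members within a library, chosen after the values were seen and given as a description, do not depend on the scaling of the library. The ratio of Otc to Cps1 was 0.119 and 0.125 in untreated wild type, 0.130 and 0.122 in wild type with LPS and 0.140 and 0.160 in untreated transgenic liver. In transgenic liver with LPS it was 0.0200 and 0.0841. Otc and Cps1 were thus lower side by side in wild type with LPS, and both transgenic LPS libraries, replicate 2 included, had a ratio below all others. The ratio of Gls2 to Glul, the enzymes that split and make glutamine, was between 0.380 and 0.409 in the 6 libraries outside the transgenic LPS group. It was 0.438 in replicate 2 and 0.880 in replicate 1 of that group. Slc25a15 stood at 0.701 to 1.16 times the FPKM of Otc in 7 libraries and at 7.23 times in transgenic LPS replicate 1.

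**Figure D4:**
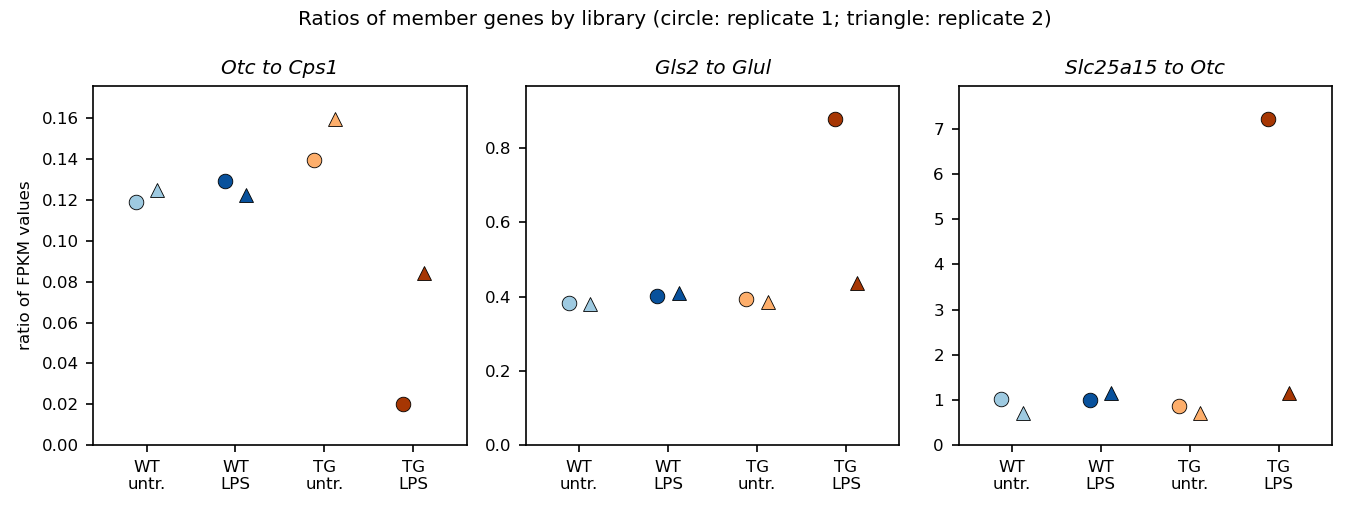
Ratio of FPKM values within each library (y axes, from 0) for Otc to Cps1, Gls2 to Glul and Slc25a15 to Otc, by group (x axis; WT, wild type; TG, transgenic; untr., untreated); circles are replicate 1 and triangles replicate 2. Transgenic LPS replicate 1 lies far from the other 7 libraries in all 3 panels, and replicate 2 lies below the other 6 for Otc to Cps1, at 0.0841.

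The 7 genes of the cycle proper summed to 4165 and 5825 FPKM in untreated wild type, 2900 and 3149 FPKM with LPS, 3080 and 3526 FPKM in untreated transgenic and 5019 and 3881 FPKM in transgenic with LPS. Arg1, Cps1 and Asl make up most of this sum. The sum was lower with LPS in wild type and higher in transgenic liver, with no overlap in either genotype.

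The features whose values over the 8 libraries ran closest to each called member, after centring on the log2(FPKM + 1) scale, were other genes of hepatocyte metabolism in several cases. For Glul they were Aldh7a1 (root mean square difference 0.07), which degrades lysine, Suox (0.08), sulfite oxidase, and Cyb5 (0.09), cytochrome b5. For Otc they were Slco1a1 (0.13), an uptake transporter for organic anions, the joined row of Bhmt and Bhmt2 (0.14), which remethylate homocysteine, and Slc15a5 (0.17). For Oat they were Slc1a2 (0.15), Psmb3 (0.16), a proteasome subunit, and Mgmt (0.18), a DNA repair enzyme. Slc1a2, a glutamate transporter of pericentral hepatocytes, was measured at 47.5 and 42.4 FPKM in untreated wild type, 26.4 and 27.3 FPKM with LPS, 30.8 and 31.7 FPKM in untreated transgenic and 19.8 and 17 FPKM in transgenic with LPS. It fell with LPS in both genotypes (-0.72 and -0.74, adjusted p = 0.00983 and 0.00924), as Oat did in wild type.

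Other genes around the cycle, most of which deliver nitrogen to it, moved in both directions in transgenic liver. Their list also holds Aqp9, Sirt5 and Car5a, which do not deliver nitrogen. Aqp9 is among the genes called lower in both genotypes, and Sirt5 among those called lower in transgenic liver. Of 19 tested, 0 were called higher and 2 lower in wild type, and 3 higher and 5 lower in transgenic liver. The latter counts were 5 higher and 2 lower with quantile normalization and 4 and 1 with centring on hepatocyte genes. Over all features 16.2% were called higher and 5.41% lower in wild type, and 16.0% and 10.5% in transgenic liver. These shares are also the ones to set beside the counts of the lists that follow. Got1 is the cytosolic aspartate aminotransferase. It was at 129 and 122 FPKM in untreated transgenic liver and at 1379 and 358 FPKM with LPS (2.47, adjusted p = 0.0131). The rise was 1.50 without replicate 1, which leaves 1 LPS library. Got2, the mitochondrial aspartate aminotransferase, and Slc25a13, a mitochondrial carrier of aspartate, were called lower in transgenic liver (-0.66 and -0.72, adjusted p = 0.0202 and 0.0390). Without replicate 1 the changes of Got2 and Slc25a13 were -0.54 and -0.44. What these changes mean for aspartate supply was not tested. Sds, which deaminates serine, rose by 1.54 (adjusted p = 0.00381), and 1.30 without replicate 1. Gcsh, of glycine cleavage, and Aqp9, a channel for urea and glycerol, fell in transgenic liver by 1.01 and 0.80 on the log2 scale (adjusted p = 0.0209 and 0.00888). Without replicate 1 their changes were -0.61 and -0.72. Without transgenic LPS replicate 1 the counts were 0 and 6 in wild type and 2 and 2 in transgenic liver. Over all single libraries left out they were 0 and 0 to 6 in wild type and 1 to 5 and 0 to 8 in transgenic liver.

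Genes that use arginine, ornithine or related compounds outside the cycle included 5 that rose in both genotypes. Of 12 tested, 5 were called higher in wild type and 5 in transgenic liver, with 1 and 3 lower (5 to 6 higher and 0 to 4 lower when single libraries were left out). Gatm, which starts creatine synthesis from arginine, was at 1.94 and 0.862 FPKM in untreated wild type and at 11.3 and 10.6 FPKM with LPS (2.35, adjusted p = 0.000384), and it rose by 1.29 in transgenic liver (adjusted p = 0.00640). Arg2, the mitochondrial arginase, was at 0.205 and 0.0460 FPKM in untreated wild type and at 1.92 and 1.32 FPKM with LPS (1.21, adjusted p = 0.00218), far below its paralog Arg1. Aldh18a1, which makes the precursor of proline and ornithine from glutamate, rose by 1.32 and 1.15 (adjusted p = 0.000681 and 0.00153). In wild type it was at 0.533 and 0.273 FPKM untreated and at 2.59 and 2.39 FPKM with LPS. Arg2 and Aldh18a1 were under 1 FPKM in every untreated library and passed the filter only through LPS libraries. A rise was the only call possible for them, and the counts of 5 include both. Nos2, Pycr1, Slc7a1 and Sms were below the filter and not tested. Gamt, the second enzyme of creatine synthesis, fell by 1.81 in transgenic liver (adjusted p = 0.0270), and without replicate 1 its change was -1.11 (adjusted p = 0.116). Summed FPKM of macrophage markers was higher in the same groups, and their part in these rises was not tested.

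Of 10 regulators known to act on urea cycle genes, Hnf4a, a hepatocyte nuclear receptor, was the only one called in wild type. It went from 325 and 247 FPKM to 144 and 145 FPKM (-0.96, adjusted p = 0.0157). With centring on hepatocyte genes, a set that includes Hnf4a, 1 regulator was called higher and 0 lower in wild type. Over all features that centring gave 43 lower calls of 4199. In transgenic liver the change of Hnf4a was -0.21 (adjusted p = 0.512). There Ppargc1a, a coactivator of fasting genes, rose from 1.81 and 1.78 FPKM to 22.9 and 4.73 FPKM (2.07, adjusted p = 0.0291). The rise was 1.04 without replicate 1, which leaves 1 LPS library. Cebpa, a factor of hepatocyte differentiation, and Gcgr, the glucagon receptor, were called lower (-1.46 and -0.86, adjusted p = 0.0361 and 0.0266), and neither was without replicate 1, at -0.98 and -0.82 (adjusted p = 0.189 and 0.103). Without either wild-type LPS library this list had 0 calls in both genotypes.

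Glul and Oat lie in the pericentral zone and most cycle genes in the periportal zone, so zone markers were counted beside them. Of 14 pericentral markers 0 were called higher and 3 lower in wild type, and 0 higher and 9 lower in transgenic liver. The shares called lower over all features were 5.41% and 10.5%, and those called higher 16.2% and 16.0%. With centring on hepatocyte genes 2 pericentral markers were called higher and 1 lower in wild type, and 0 and 7 in transgenic liver. Over all features that centring gave 43 lower calls of 4199 and 507 of 2644. With quantile normalization the pericentral counts were 0 and 3 in wild type and 0 and 11 in transgenic liver, beside 994 lower calls of 2453 and 1296 of 2806. In transgenic liver Cyp1a2, an oxidase of drugs, fell by 1.82 on the log2 scale (adjusted p = 0.00512), Tbx3, a Wnt-responsive factor, by 2.13 (adjusted p = 0.0134) and Lect2 by 1.32 (adjusted p = 0.0196). Without replicate 1, 6 were called lower (2 to 11 over all single libraries left out), and Tbx3 was not among them (-1.60, adjusted p = 0.0793), while Lect2 was at -0.81 (adjusted p = 0.0484). Of 11 periportal markers 1 was called higher and 1 lower in wild type, and 2 higher (Sds and Ctsc) and 2 lower (Cyp2f2 and Pigr) in transgenic liver. The wild-type counts were 3 and 0 with centring and 1 and 0 with quantile normalization, and those in transgenic liver stayed 2 and 2 under both. The median LPS change of the pericentral list was -0.31 in wild type and -0.94 in transgenic liver, and that of the periportal list -0.24 and 0.29. These lists are descriptions by count, and a difference between the zones was not tested.

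**Figure D5:**
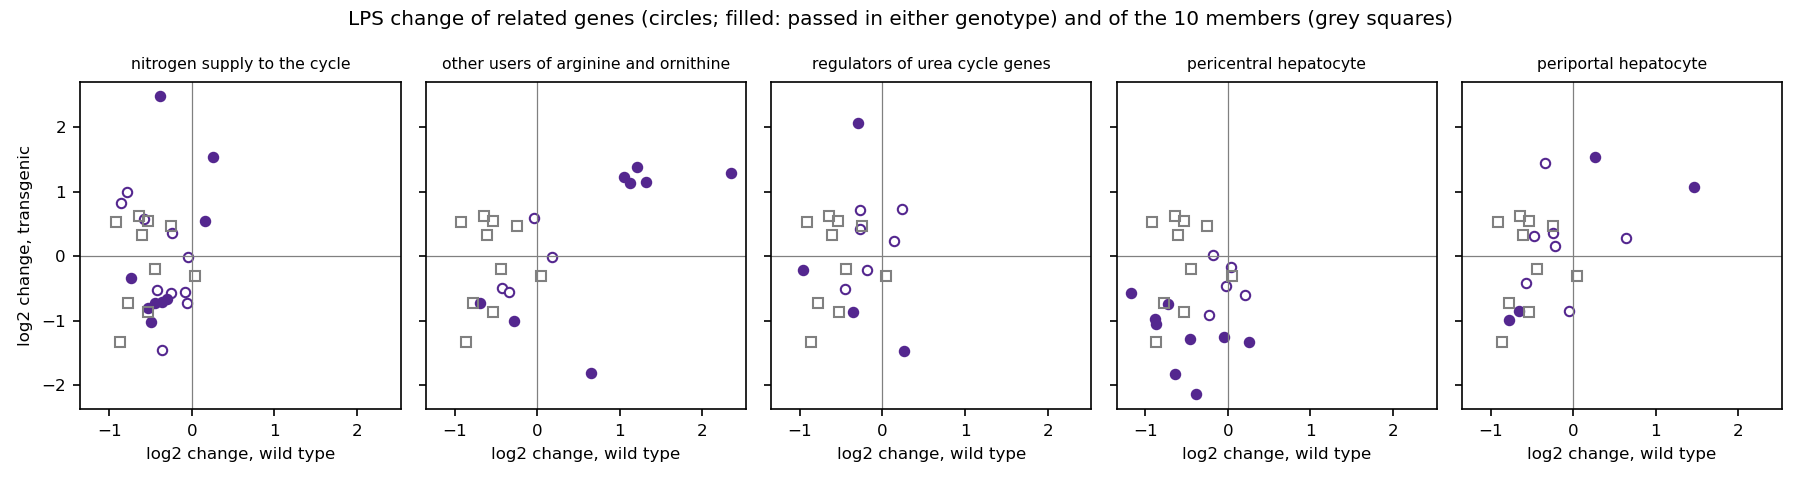
LPS change on the log2(FPKM + 1) scale in wild type (x axis) and in transgenic liver (y axis) for 5 lists of related genes, 1 panel each (circles, filled where the gene passed in either genotype), with the 10 members as grey squares in each panel. Pericentral genes lie mostly in the lower left, Got1 at -0.38 and 2.47 lies at the top of the first panel, and 5 members lie in the upper left.

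Markers of other cells and tissues moved between the same groups. Of 13 macrophage markers 11 were called higher with LPS in each genotype, of 7 neutrophil markers 7, and of 10 stellate and endothelial markers 9. The neutrophil markers Ngp, Camp, Ltf, Mpo and Elane and the macrophage markers Itgam and Ccr2 were under 1 FPKM in every untreated library. They passed the filter only through LPS libraries, so that a rise was the only call possible for them. The neutrophil marker Cxcr2 was below the filter. Summed pancreas acinar markers were at 203 and 82.3 FPKM in wild type with LPS and 145 and 25.3 FPKM in transgenic liver with LPS, and 10 of 10 were called lower with LPS in transgenic liver. When both untreated libraries numbered 1, those with more pancreas RNA in their genotype, were left out, an alternative chosen after seeing the data, the LPS changes of Oat, Glul and Otc averaged over genotypes were -0.73, -0.66 and -1.36, and none was called (adjusted p = 0.0602, 0.0815 and 0.0606). The direction of each member in wild type was the same without those libraries, with 9 of 10 below 0. Their part in the results was not tested further.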

How the data were processed

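Liver RNA of 8 mouse libraries was measured by stranded mRNA sequencing. The deposited values are FPKM, 1 column per library, computed by the authors, whose processing notes name TopHat2 2.1.0, Bowtie2 2.2.6, Cufflinks, Cuffdiff 2.2.1 and mm10. No source used here names the gene annotation or a scaling between libraries. The lowest values gave no shared step in most libraries, so whole reads were not recovered and depth is unknown.

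The table has 24545 rows, 6197 of them at 0 in all 8 libraries. Identical rows (549 sets) were joined. Values were analysed as log2(FPKM + 1). Changes are on that scale, which understates those of low genes. The 11463 features with 1 FPKM or more in 2 or more libraries were fitted in limma 3.58.1 (R 4.3.3) with 1 mean per group over all 8 libraries, trended empirical Bayes, 2-sided tests and Benjamini-Hochberg adjustment over all features at 0.05. The fit was tested on simulated data. The p-values measure the spread between 2 libraries a group. Where a single library was left out, its group kept 1 library and no spread of its own, and the p-values rest on the spread in the other groups.

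The members and gene lists were chosen with earlier results of these data known. Named were all 10 members, up to 4 genes per related list with the largest change past the threshold, the 3 features nearest in pattern to each called member, Cyp7a1 and Arg2; some genes that this rule names are not reported here. Alternatives were pseudocount 0.1, no filter, a filter of 5 FPKM, quantile normalization, centring on hepatocyte genes, robust moderation, fits of only the groups compared, a replicate block and leaving out libraries. Gene positions are from GENCODE vM21 and promoters from RefSeq (GRCm38.p6), both on the assembly of mm10.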

Additional observations from a re-analysis of the deposited data

How the results depend on the processing

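Of the values recomputed, 796 kept direction and side of the threshold, 34 lost and 27 gained a call, and 21 changed sign. The 796 include values that were called in neither fit. Among the called results, Oat in wild type kept its call under 6 of 17 alternatives and Glul in transgenic liver under 8 of 17. Averaged over genotypes, Otc kept its call under 8 of 16 alternatives, and Glul and Oat under 13 of 16 each. The 2 libraries a group and the unknown depth limit every value. The causes of the changes below were not tested.

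The count of members called for LPS in wild type, 1 as reported, was 0 with no filter, 0 with a filter of 5 FPKM, 0 with quantile normalization and 0 with hepatocyte centring, and 2 with robust moderation and 2 with only the groups compared (Cps1 and Oat); it was 0 to 6 when single libraries were left out. For LPS in transgenic liver, 1 as reported, it was 0 with only the groups compared, 0 without both untreated libraries numbered 1 and 0 to 5 when single libraries were left out. For LPS averaged over genotypes, 3 as reported, it was 1 with quantile normalization (Glul), 0 with hepatocyte centring, 0 without both untreated libraries numbered 1 and 1 to 4 when single libraries were left out. For transgenic against wild type with LPS and for the interaction, 0 as reported, it was 0 to 2 when single libraries were left out.

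Same-numbered libraries share only a number: the correlation of their deviations from the group means was 0.04 to 0.46 over the 6 pairs of groups, under 0.1 in 2 of them. With the replicate block 2 members were called for LPS in transgenic liver, Otc (adjusted p = 0.0239) and Glul, and the other counts of members stayed as reported.

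Signs turned under scaling for Ass1 with LPS in wild type (0.0213 with quantile normalization, 0.22 with hepatocyte centring) and between genotypes with LPS (-0.0183 with centring). They turned for Gls2 with LPS in wild type (0.0312 with centring) and in transgenic liver (0.16 with quantile normalization), between genotypes with LPS (0.14 with quantile normalization) and in the interaction (-0.0547 with centring), and for Oat in the interaction (-0.25 with centring). When single libraries were left out, Nags ranged from -0.46 to 0.55 for LPS in wild type, from -0.44 to 0.57 between untreated genotypes and from -0.85 to 0.16 in the interaction. Slc25a15 ranged from -0.0594 to 1.14 for LPS in transgenic liver. Between genotypes with LPS, Ass1 ranged from -0.30 to 0.35 and Gls2 from -0.20 to 0.15. In the interaction, Otc ranged from -1.17 to 0.25 and Oat from -0.25 to 0.36.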
